A study of Mus musculus with 14 samples.

Results

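Interferon-stimulated genes are the genes that cells switch on when an interferon binds its receptor, and 46 of them were followed here in the dentate gyrus of mouse slice cultures. They were chosen by gene symbol from the names of textbook interferon-stimulated genes, with earlier results of these data known. All 46 were found among the 55291 rows of the count tables. Of the 46, 45 passed edgeR's expression filter, as did 22150 genes in all. Oasl1 failed it, with 2 to 16 counts in 13 libraries and 50 counts in library APPko 3. The libraries were polyadenylated RNA of single dentate gyri cut out of organotypic entorhino-hippocampal cultures, brain slices kept alive on medium with the entorhinal cortex still attached. 8 libraries came from cultures of APP-deficient mice (APPko, APP-/-) and 6 from C57BL/6J wildtype cultures (APP+/+). Animals of both genotypes were 4 to 5 days old when the slices were cut. The cultures then spent 18 days or more in medium with horse serum, and the labels name no treatment of either genotype. The labels do not say which cultures shared an animal or on what day they were made, so the p-values below measure the spread between cultures.

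Total counts per library ran from 20298058 to 31031126 in APPko and from 16686909 to 29713323 in wildtype. The targeted gene, App, went with the labels in 14 of 14 libraries, at 214 ± 17.9 CPM in APPko (SD, n = 8) and 809 ± 131 CPM in wildtype (SD, n = 6) (log2 fold change -1.92). Column headers end in f for 7 APPko and 3 wildtype libraries and in m for 1 APPko library (APPko 8) and 3 wildtype libraries (4, 5 and 6). Of the dentate granule cell markers Prox1, C1ql2, Calb1, Dsp, Tdo2 and Rfx3, 6 of 6 were measured, with a summed level of 437 to 783 CPM in APPko and 568 to 1131 CPM in wildtype, and 1 of the 6 (Rfx3) was called lower in APPko. CPM here are counts scaled to library size with edgeR's TMM factors, which were 0.852 and 0.847 in wildtype 2 and 3 and 0.976 to 1.09 elsewhere.

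Type I interferons are secreted when a cell senses foreign or misplaced nucleic acid. Their receptor, built from Ifnar1 and Ifnar2, works through the kinases Jak1 and Tyk2 to assemble a complex with Stat2 and Irf9 that binds the interferon-stimulated response element (ISRE), while interferon gamma acts through the gamma-activated site (GAS). The products bind or cut viral RNA, starve viruses of nucleotides, tether particles, attack parasite vacuoles and feed back on the pathway itself. In the brain, microglia, astrocytes and endothelial cells respond to interferon, and neurons can do so too.

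The promoter windows of 9 members are shown because the results below turn on these genes. 5 had a high level in library APPko 3 (Ifit1, Ifit3, Ifit3b, Rsad2, Gbp2). Of these, Ifit3b was also high in APPko 6, at 40.4 CPM against 53.3 CPM in APPko 3. 2 more hold ISRE letters (Oas1a, Irgm1), and the last are the pair of called genes for which a window was at hand (Lgals3bp, Xaf1). Each is the 210 bases before the gene's start in RefSeq's GRCm38.p6 table, written 5′ to 3′ on the gene's strand. Capitals mark the core letters of the ISRE (GAAA, 2 bases of any kind, GAAA), which on the other strand read TTTC, 2 bases of any kind, TTTC.
Ifit1, chr19:34640679-34640888, plus strand: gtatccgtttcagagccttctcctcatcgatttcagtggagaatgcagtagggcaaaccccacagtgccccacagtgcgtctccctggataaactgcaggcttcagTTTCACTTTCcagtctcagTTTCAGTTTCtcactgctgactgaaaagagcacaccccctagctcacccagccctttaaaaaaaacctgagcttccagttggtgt
Ifit3, chr19:34583319-34583528, plus strand: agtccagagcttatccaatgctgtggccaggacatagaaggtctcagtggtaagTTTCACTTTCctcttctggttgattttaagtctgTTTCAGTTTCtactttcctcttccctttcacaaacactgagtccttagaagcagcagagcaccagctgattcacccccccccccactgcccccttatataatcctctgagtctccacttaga
Ifit3b, chr19:34607747-34607956, plus strand: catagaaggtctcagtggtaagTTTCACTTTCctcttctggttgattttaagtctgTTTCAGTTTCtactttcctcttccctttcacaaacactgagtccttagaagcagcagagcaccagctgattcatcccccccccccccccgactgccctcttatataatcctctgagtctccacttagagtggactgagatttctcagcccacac
Rsad2, chr12:26456453-26456662, minus strand: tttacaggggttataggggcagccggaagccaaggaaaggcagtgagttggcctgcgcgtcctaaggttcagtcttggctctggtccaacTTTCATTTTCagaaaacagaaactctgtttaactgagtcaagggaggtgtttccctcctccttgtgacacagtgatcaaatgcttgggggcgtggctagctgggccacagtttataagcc
Gbp2, chr3:142620453-142620662, plus strand: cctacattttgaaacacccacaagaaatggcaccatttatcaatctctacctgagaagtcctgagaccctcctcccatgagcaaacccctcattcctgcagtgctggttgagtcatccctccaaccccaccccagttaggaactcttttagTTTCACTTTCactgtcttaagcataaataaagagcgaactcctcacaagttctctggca
Oas1a, chr5:120907526-120907735, minus strand: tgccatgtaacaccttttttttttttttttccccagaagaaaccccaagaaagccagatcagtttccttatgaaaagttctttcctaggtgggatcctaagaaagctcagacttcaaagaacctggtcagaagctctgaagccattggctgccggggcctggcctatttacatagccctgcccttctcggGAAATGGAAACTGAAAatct
Irgm1, chr11:48871421-48871630, minus strand: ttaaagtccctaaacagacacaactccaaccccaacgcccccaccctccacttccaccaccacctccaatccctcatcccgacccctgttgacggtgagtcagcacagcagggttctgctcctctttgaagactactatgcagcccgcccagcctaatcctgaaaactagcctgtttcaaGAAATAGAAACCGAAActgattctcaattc
Lgals3bp, chr11:118401960-118402169, minus strand: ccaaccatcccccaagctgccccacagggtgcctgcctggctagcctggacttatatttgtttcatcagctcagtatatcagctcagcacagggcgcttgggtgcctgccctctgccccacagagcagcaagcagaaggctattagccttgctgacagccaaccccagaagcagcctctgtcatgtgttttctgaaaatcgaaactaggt
Xaf1, chr11:72301419-72301628, plus strand: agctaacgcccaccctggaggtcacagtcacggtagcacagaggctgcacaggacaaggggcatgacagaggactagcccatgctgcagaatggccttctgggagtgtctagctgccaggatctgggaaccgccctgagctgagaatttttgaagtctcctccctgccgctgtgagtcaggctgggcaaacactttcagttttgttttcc

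In full windows of 300 bases (250 before to 50 after the start), the ISRE letters stood on either strand in 18 of the 35 members in the table (51.4%), against 1079 of 27025 genes of the whole table (3.99%). The GAS letters TTCNNNGAA stood in 9 of 35 members (25.7%), against 9.55% of all genes. Usp18, Zbp1, Mx1, Mx2, Ifi27, Rtp4, Oas2, Dhx58, Parp9, Parp14 and Ifi204 are not in the table. Ifit1 held the ISRE letters in 2 places, at positions -104 and -85 from the start, and Oas1a in 2 overlapping places. Ifit3 and Ifit3b are neighbouring gene copies on chromosome 19. An alignment of their windows of 300 bases ran over 340 columns, gaps included, and 258 of these columns were identical. The share of 75.9% therefore counts gaps as differences and understates the identity of the paired bases. The windows are offset, with the same ISRE letters at -156 and -122 in Ifit3 and at -188 and -154 in Ifit3b. How reads that match both genes were counted is not given in the sources used here, so the split of counts between them is uncertain. A match of letters describes the window and is not evidence of a bound site.

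The members were on average a little higher in APPko than in wildtype cultures, and few of them passed the test gene by gene. 3 of 45 were called higher in APPko: Lgals3bp, a secreted glycoprotein that binds galectins, Zbp1, a sensor of Z-form nucleic acid, and Xaf1, a promoter of cell death. The same test called 0.944% of all 22150 genes higher and 1.41% lower (2.35% in either direction). 0 members were called lower by edgeR, 0 had an unadjusted p under 0.05 in that direction, and DESeq2 and limma's voom also called 0 lower, while 17 of 45 had an unadjusted p under 0.05 with a higher level in APPko. Of all genes, 9.07% were higher and 11.4% lower at an unadjusted p under 0.05, the shares against which the unadjusted counts below stand. DESeq2 called 8 members higher, but it also called more of all genes than edgeR did, 737 higher and 1028 lower against 209 and 312. The DESeq2 calls below stand against those counts. The log2 fold change was positive in 41 of 45 members (91.1%), against 48.3% of all genes, with a median of 0.37 against -0.013 over all genes. The calls depended on which libraries were in the fit: 0 members passed without APPko 1, 2, 4, 5 or 7 or without wildtype 3, 1 passed without APPko 3, APPko 6 or wildtype 2, 2 without wildtype 1 or 6, 3 without wildtype 4 or 5, and 5 without APPko 8. The calls over all genes moved too. The fits with 0 members called 22 to 72 of all genes higher, against 209 with every library. A lost call in those fits is therefore no sign of a change particular to the members. Without APPko 6 or wildtype 2 the fits called 92 and 46 genes higher, but without APPko 3 the number was 239.

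A score per library, the average deviation of the 45 tested members from their own mean log2 CPM over the 14 libraries, showed how this average came about. In APPko libraries 1 to 8 the scores were 0.0694, 0.200, 1.10, 0.151, 0.163, 0.248, -0.162 and -0.418, against -0.490, -0.400, -0.219, -0.429, 0.0646 and 0.126 in wildtype libraries 1 to 6. APPko 3 stood far above all others, APPko 1, 7 and 8 lay within the wildtype range, and wildtype 2, 3, 5 and 6 lay within the APPko range, so the groups overlapped. The mean score was 0.168 ± 0.436 in APPko (SD, n = 8) and -0.225 ± 0.264 in wildtype (SD, n = 6), a difference of 0.393 on the log2 scale. Without APPko 3 the APPko mean was 0.0359 ± 0.241 (SD, n = 7) and the difference 0.260 with the same genes and scaling.

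**Figure D1:**
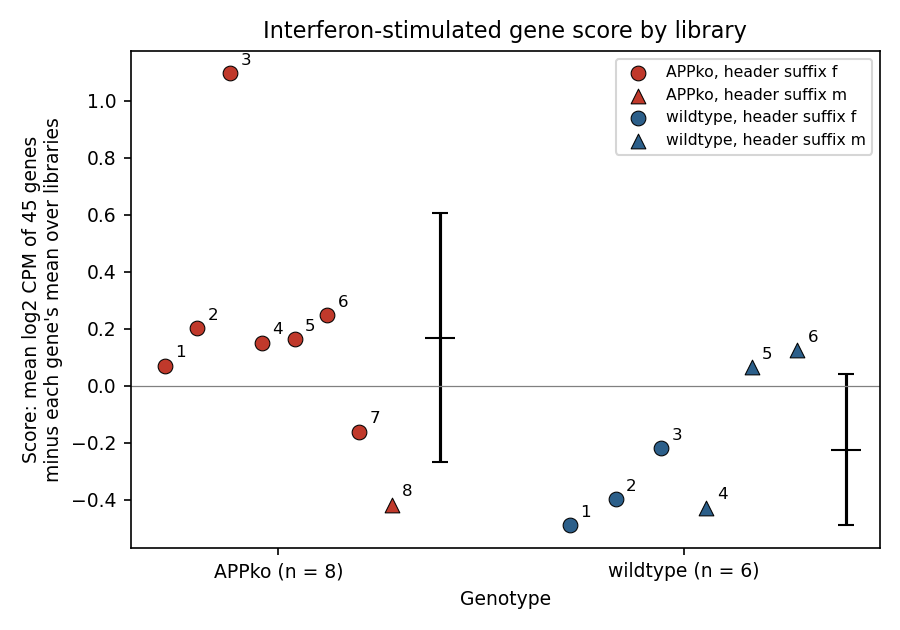
Score of the interferon-stimulated genes in each library (vertical axis, log2 scale), APPko left and wildtype right. Points are libraries labelled by replicate number, circles carry header suffix f and triangles m, and bars give the mean and SD. APPko 3 sits at 1.10, above every other library, whose highest score is 0.248.

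Among f libraries alone the genotypes did not overlap in score: the 7 APPko libraries ran from -0.162 to 1.096 and the 3 wildtype libraries from -0.490 to -0.219, a difference of 0.622, or 0.481 without APPko 3. In a fit of these 10 libraries, in which Oasl1 also passed the filter, 12 of 46 members were called higher, where the same fit called 7.1% of all genes higher and 8.47% lower. The 12 were Zbp1, Oasl2, Oas1a, Usp18, Trim30a, Irf7, Irgm1, Igtp, Xaf1, Slfn2, Lgals3bp and Mx2. In 10 members every f APPko library lay above every f wildtype library, as in 7.42% of all genes, and 6.66% of all genes lay below. Among m libraries the 1 APPko library scored -0.418, and the 3 wildtype libraries scored -0.429, 0.0646 and 0.126, and this was not tested. Wildtype 2 and 3, which also had the lowest TMM factors, are 2 of the 3 f wildtype libraries. Without both, 1 member was called (Ifi27) among 19 genes higher and 16 lower.

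**Figure D2:**
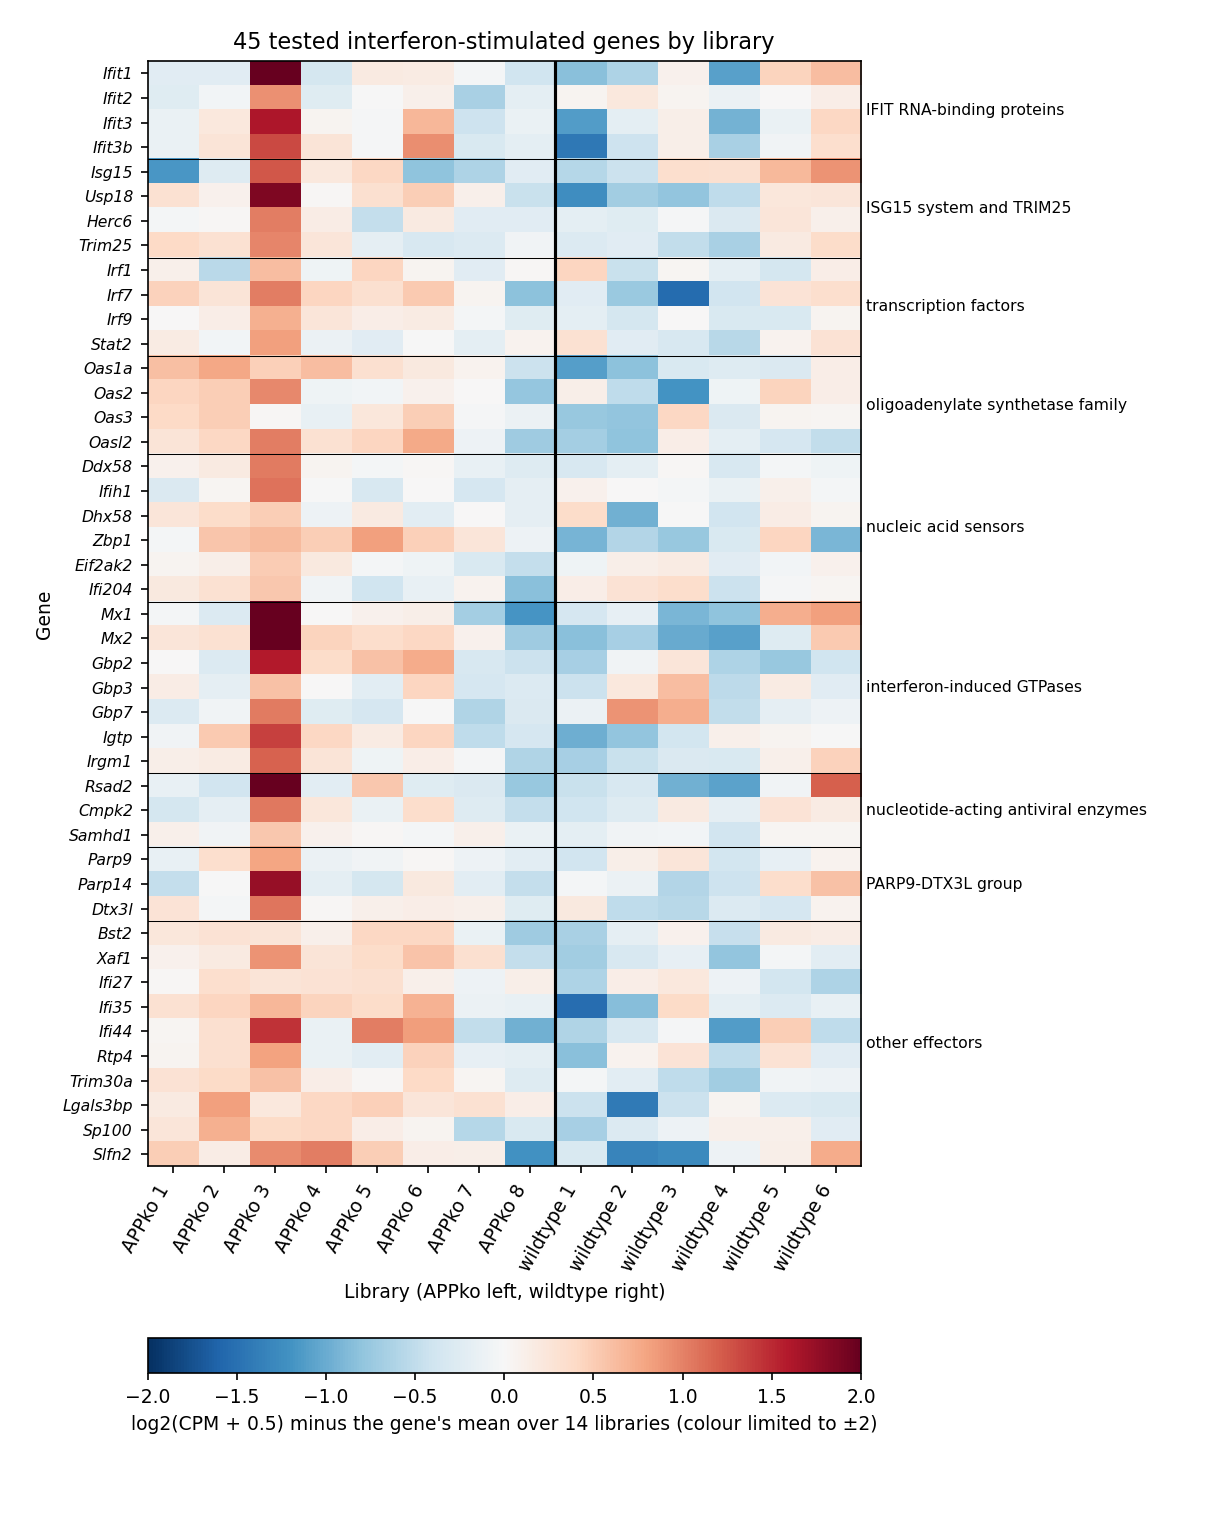
Level of each of the 45 tested members in each library, as log2(CPM + 0.5) minus the gene's mean over 14 libraries, with APPko libraries left of the line and wildtype libraries right. Rows are grouped by role, and red marks levels above and blue below the gene's mean. The column of APPko 3 is red in nearly every row, and it is the highest of 14 libraries in 35 of 45 genes.

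APPko 3 was singled out for its score over these same members, so its levels in them are given as a description and no test of it. It had the highest level of all 14 libraries in 35 of 45 members (77.8%), against 8.24% of all genes. It was at least 2 times the median of the other 7 APPko libraries in 22 members (48.9%, against 4.55% of all genes) and at least 4 times in 5 (11.1%, against 0.244%). These multiples over the other APPko libraries have no replicate check, since they come from 1 culture. The summed level of the 46 members was 1444 CPM in APPko 3, 567 to 829 CPM in the other APPko libraries and 483 to 693 CPM in wildtype libraries. In 12 members the multiple was under 1.5, and in Lgals3bp and Oas3 APPko 3 lay below the median of the other APPko libraries.

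The widest gap was in Rsad2 (viperin, an enzyme that makes a chain-terminating nucleotide; ENSMUSG00000020641.16, chromosome 12, 26442746 to 26456452, GRCm38), which had 91.3 CPM in APPko 3, 5.63 to 14.5 CPM in the other 7 APPko libraries, and 4.39 to 23.1 CPM in the wildtype libraries. APPko 3 was 11.1 times the median of the other APPko libraries, and wildtype 6, at 23.1 CPM, was the next highest library. Mx1, a dynamin-like GTPase whose functional form blocks influenza and related viruses, had 15.9 CPM in APPko 3, 0.666 to 2.39 CPM in the other 7 APPko libraries, and 0.915 to 4.18 CPM in the wildtype libraries, a multiple of 7.60. Ifit1, which binds RNA whose cap lacks the host's methylation, had 102 CPM in APPko 3, 15.5 to 23.4 CPM in the other 7 APPko libraries, and 9.53 to 31.9 CPM in the wildtype libraries, a multiple of 5.72. Without APPko 3 the log2 fold change was -0.09 for Rsad2, -0.30 for Mx1 and -0.0029 for Ifit1, with edgeR adjusted p of 0.915, 0.699 and 0.996, and with it 1.02, 0.66 and 0.60. Parp14, an ADP-ribosyltransferase, and Mx2, the other dynamin-like GTPase, followed with multiples of 4.14 and 4.02. In the untested Oasl1, which in mice holds back translation of Irf7, the multiple was 10.1.

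The interferons themselves were scarcely detected, since 10 of 10 ligand genes failed the expression filter with 3 to 43 counts over all 14 libraries. Ifnb1, the gene of interferon beta, had 8 counts in APPko 3, 2 counts in wildtype 4 and 0 in the other 12 libraries. APPko 3 had 0 counts of Ifna1, Ifna2, Ifna4, Ifna5, Ifnk, Ifne, Ifng and Ifnl3 and 1 of Ifnl2. Most low counts in these tables are even numbers (78.7 to 84.7% of counts from 1 to 10), so 8 counts need not be 8 separate fragments. Ifng had 5 counts in APPko libraries and 6 in wildtype libraries.

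The summed level of 14 microglial markers was 759 CPM in APPko 3, 822 to 1301 CPM in the other APPko libraries and 576 to 1028 CPM in wildtype. Lymphocyte markers were near 0 in every library, with a summed level over 10 genes of 1.26 to 3.01 CPM in APPko (2.43 CPM in APPko 3) and 0.770 to 2.54 CPM in wildtype, and Cd8a at 0 in 11 libraries. Monocyte and neutrophil markers summed over 7 genes to 0.370 to 2.26 CPM in APPko (2.07 CPM in APPko 3) and 0.220 to 2.53 CPM in wildtype. The 3 markers of plasmacytoid dendritic cells summed to 12.2 to 21.7 CPM in APPko (14.5 CPM in APPko 3) and 11.9 to 18.1 CPM in wildtype, nearly all of it Siglech, which microglia also express. Of 8 endothelial markers, 4 were at least 2 times the median of the other APPko libraries in APPko 3, against 4.55% of all genes. These were Cdh5, Kdr, Pecam1 and Ly6c1 at 3.61, 2.60, 2.40 and 2.32 times, with only 2.11 to 4.36 CPM in APPko 3. Cldn5, Flt1 and Tek stayed under 2 times, and Emcn was 0.505 times. The sum over the 8 genes was 32.7 CPM in APPko 3, 19.9 to 27.5 CPM in the other APPko libraries and 14.97 to 26.3 CPM in wildtype. The part of these cells in the levels of APPko 3 was not tested. In bulk RNA, fewer cells of a type and less RNA per cell cannot be told apart.

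**Figure D3:**
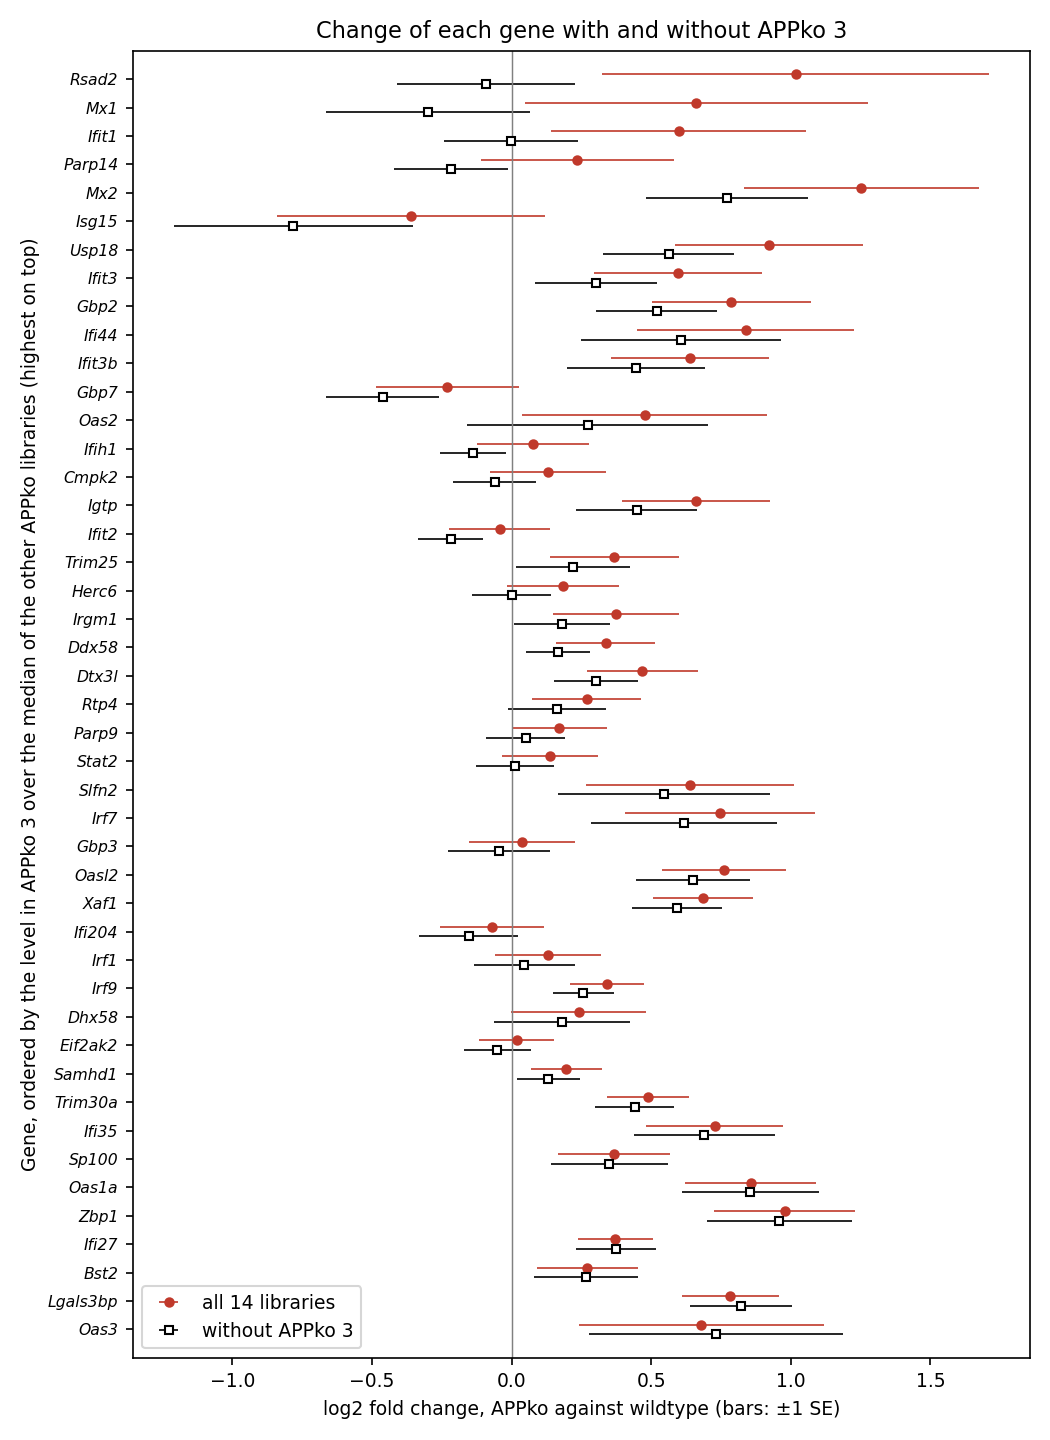
Log2 fold change of each tested member, APPko against wildtype (horizontal axis), with all 14 libraries (filled red) and without APPko 3 (open black), and bars of 1 SE. Genes run down the page from the highest to the lowest multiple of APPko 3 over the other APPko libraries. Rsad2 at the top is at 1.02 with and -0.09 without APPko 3, and Lgals3bp near the bottom is at 0.78 with and 0.82 without it.

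Without APPko 3, 1 of 45 members was called higher (Lgals3bp) and 0 lower by edgeR, where that fit called 1.09% of 21852 genes higher and 0.783% lower. 33 of 45 members still had a positive log2 fold change (73.3%, against 48.6% of all genes), with a median of 0.26. The members that lost the call, Zbp1 and Xaf1, had log2 fold changes of 0.96 and 0.59 and an adjusted p of 0.0597 and 0.0597.

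Lgals3bp (ENSMUSG00000033880.11, chromosome 11, 118392751 to 118402092) was the one member whose groups did not overlap, as was the case for every APPko library above every wildtype library in 0.506% of all genes, and below in 0.609%. Its level was 27.6 to 45.01 CPM in APPko libraries with a median of 30.5, against 9.14 to 26.2 CPM in wildtype libraries with a median of 19.4. The means were 32.5 ± 5.67 CPM in APPko (SD, n = 8) and 18.9 ± 5.55 CPM in wildtype (SD, n = 6) (log2 fold change 0.78, SE 0.17, edgeR adjusted p = 0.0310). Leaving out each library in turn gave adjusted p from 0.00955 (without wildtype 4) to 0.0748 (without APPko 5), and the call was lost without APPko 1, 2, 4, 5 or 7 or wildtype 3. The fits that lost it called only 22 to 72 of all genes higher. Over every fit that left out a library, the log2 fold change of Lgals3bp ran from 0.64 to 0.90. APPko 3 had 29.1 CPM, in the lower part of the APPko range. Its promoter window above holds no ISRE letters, and the RefSeq start it was counted from lies inside the span of the deposited annotation.

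Zbp1 (ENSMUSG00000027514.14, chromosome 2, 173206612 to 173218923), which can trigger necroptosis, had 2.89 to 5.89 CPM in APPko libraries with a median of 4.57, against 1.40 to 4.40 CPM in wildtype libraries with a median of 1.78. Wildtype 5, at 4.40 CPM, reached into the APPko range, and the other 5 wildtype libraries lay below every APPko library. The means were 4.34 ± 1.03 CPM in APPko (SD, n = 8) and 2.20 ± 1.14 CPM in wildtype (SD, n = 6) (log2 fold change 0.98, SE 0.25, edgeR adjusted p = 0.0479). Xaf1 (ENSMUSG00000040483.15, chromosome 11, 72301629 to 72313733) had 14.6 to 39.0 CPM in APPko libraries with a median of 25.3, against 11.7 to 20.1 CPM in wildtype libraries with a median of 17.1. APPko 8 was the 1 APPko library within the wildtype range. The means of Xaf1 were 25.9 ± 7.07 CPM in APPko (SD, n = 8) and 16.1 ± 3.32 CPM in wildtype (SD, n = 6) (log2 fold change 0.68, SE 0.18, edgeR adjusted p = 0.0498). Both calls were marginal. Zbp1 passed in 3 of 14 fits that left out 1 library (APPko 8, wildtype 4 or wildtype 5, with adjusted p of 0.0445, 0.0370 and 0.0165), and Xaf1 in 2 (APPko 8 or wildtype 5, with 0.0292 and 0.0429). The highest values, 0.111 for Zbp1 and 0.101 for Xaf1, came without wildtype 2. Under other settings Zbp1 was not called with upper quartile scaling (0.0520), total counts (0.0600), the GC trend removed (0.0719) or voom (0.0740), and Xaf1 not with thinned counts (0.0501), voom (0.0633) or the header suffix as a covariate (0.105). Without both wildtype 2 and 3, the adjusted p was 0.217 for Zbp1, 0.139 for Xaf1 and 0.0772 for Lgals3bp.

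**Figure D4:**
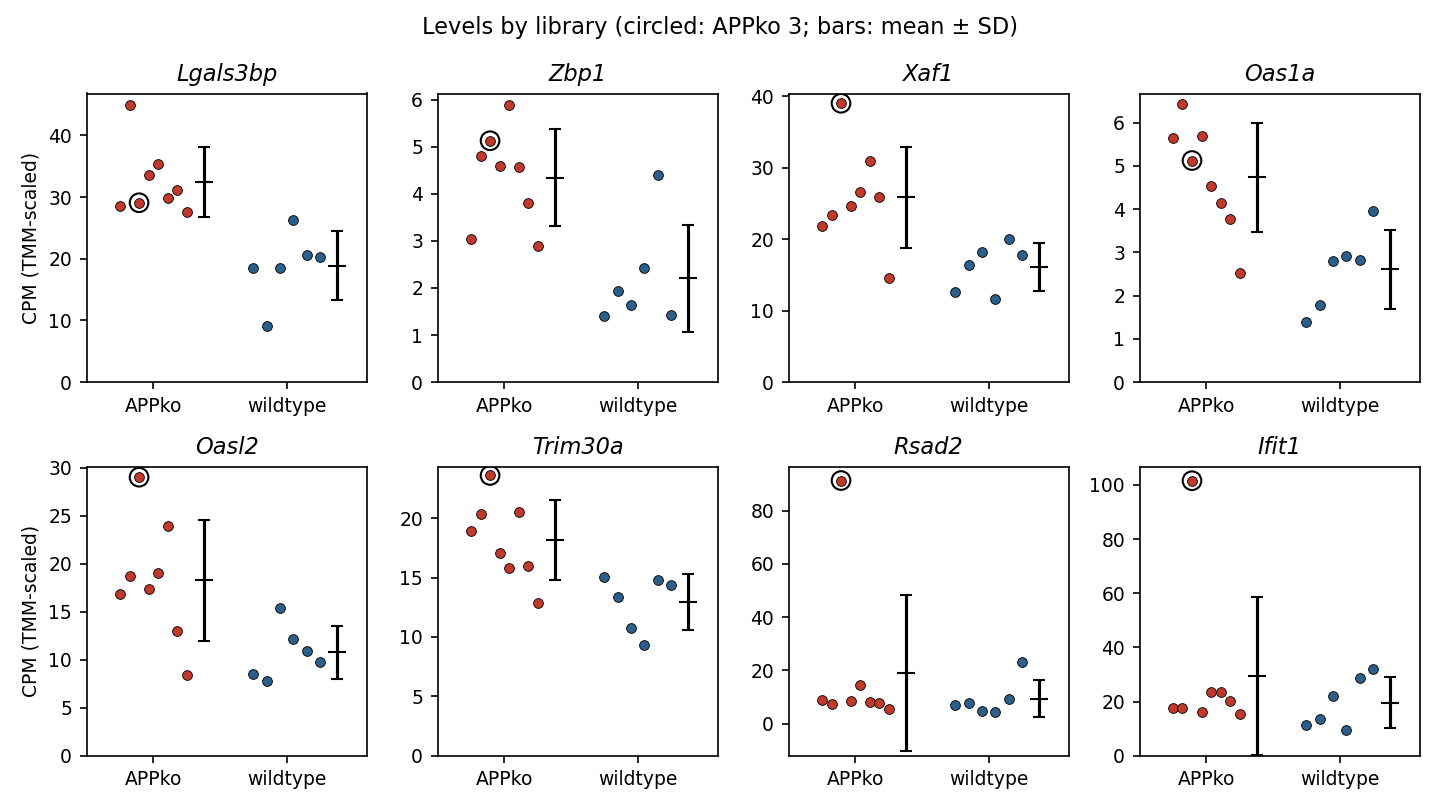
Level of 8 members in each library (vertical axes, TMM-scaled CPM), APPko left and wildtype right in every panel, with bars for the mean and SD. APPko 3 is circled. In Lgals3bp, Zbp1 and Oas1a the circle lies within the other APPko points, and in Rsad2 and Ifit1 it stands alone at 91.3 and 102 CPM.

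Among the other effectors, 10 of 10 members had a positive log2 fold change with a median of 0.56, or 0.49 without APPko 3. 2 of the 10 were called by edgeR, 4 by DESeq2 and 2 by voom, 6 had an unadjusted p under 0.05, and 0 were called lower. Trim30a, an E3 ligase that in mice dampens Toll-like receptor signalling, had 12.9 to 23.6 CPM in APPko libraries with a median of 18.0, against 9.36 to 15.1 CPM in wildtype libraries with a median of 13.9 (log2 fold change 0.49, SE 0.15, edgeR adjusted p = 0.0742), and it passed without wildtype 1. Ifi35, a protein that pairs with Nmi, had 5.81 to 10.8 CPM in APPko libraries with a median of 8.70, against 1.94 to 8.57 CPM in wildtype libraries with a median of 5.44 (log2 fold change 0.73, SE 0.25, edgeR adjusted p = 0.106). Ifi27, a small protein of intracellular membranes, had the highest level per exon length of all members at 67.4 on the length-scaled scale (RPKM). It measured 90.4 to 123 CPM in APPko libraries with a median of 111, against 62.6 to 112 CPM in wildtype libraries with a median of 82.6 (log2 fold change 0.37, SE 0.13, edgeR adjusted p = 0.129), and voom called it. Bst2 (tetherin, which holds budding virus at the cell surface), the GPCR chaperone Rtp4, Sp100 of the nuclear bodies, the lymphocyte quiescence factor Slfn2 and Ifi44 had log2 fold changes of 0.27, 0.27, 0.37, 0.64 and 0.84, with adjusted p from 0.228 to 0.4657.

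The oligoadenylate synthetases make the second messenger that activates RNase L, and 4 of 4 tested members of the family were positive, with a median log2 fold change of 0.72, or 0.69 without APPko 3. edgeR called 0 of the 4, 2 had an unadjusted p under 0.05, and DESeq2 called Oas1a and Oasl2 while voom called 0. Oas1a had 2.52 to 6.42 CPM in APPko libraries with a median of 4.84, against 1.40 to 3.96 CPM in wildtype libraries with a median of 2.80 (log2 fold change 0.86, SE 0.23, edgeR adjusted p = 0.0580). 6 of 8 APPko libraries lay above every wildtype library, APPko 3 among them at 5.13 CPM, only 1.13 times the median of the others. It was called without APPko 8, wildtype 4 or wildtype 6. Oasl2, the family member with the highest level per exon length at 2.36 RPKM, had 8.37 to 29.0 CPM in APPko libraries with a median of 18.1, against 7.81 to 15.4 CPM in wildtype libraries with a median of 10.3 (log2 fold change 0.76, SE 0.22, edgeR adjusted p = 0.0693), and was called without APPko 8. Oas2 and Oas3 were low, at 0.213 and 0.0797 RPKM, with log2 fold changes of 0.48 and 0.68 (adjusted p of 0.582 and 0.402).

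Of the 6 nucleic acid sensors Zbp1 alone passed the test, in edgeR and in DESeq2, and voom called 0. Ddx58 (RIG-I) and Ifih1 (MDA5), which recognise viral double-stranded RNA, had log2 fold changes of 0.34 and 0.08 (adjusted p of 0.295 and 0.877), and in APPko 3 they were 2.05 and 2.48 times the median of the other APPko libraries. Their regulator Dhx58 (LGP2) had a log2 fold change of 0.24 (adjusted p = 0.622). Eif2ak2 (PKR), the kinase that stops translation on double-stranded RNA, had the highest level of the sensors at 4.30 RPKM and measured 15.5 to 30.9 CPM in APPko libraries with a median of 21.8, against 18.6 to 24.4 CPM in wildtype libraries with a median of 21.9 (log2 fold change 0.02, SE 0.13, edgeR adjusted p = 0.964). The DNA-binding protein Ifi204 had 7.11 to 19.4 CPM in APPko libraries with a median of 13.2, against 9.56 to 16.9 CPM in wildtype libraries with a median of 13.9 (log2 fold change -0.07, SE 0.19, edgeR adjusted p = 0.882). In both genes the wildtype range lay within the APPko range.

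The 4 IFIT genes belong to a family with members that bind foreign RNA and block its translation. edgeR, DESeq2 and voom each called 0 of the 4, and 1 (Ifit3b) had an unadjusted p under 0.05. APPko 3 was the highest library in 4 of 4. Ifit3, with the next highest level of all members at 36.8 RPKM, had 177 CPM in APPko 3, 43.0 to 91.2 CPM in the other 7 APPko libraries, and 26.4 to 76.6 CPM in the wildtype libraries (log2 fold change 0.60, SE 0.30, edgeR adjusted p = 0.274). Ifit3b had 53.3 CPM in APPko 3, 16.9 to 40.4 CPM in the other 7 APPko libraries, and 7.48 to 26.7 CPM in the wildtype libraries (log2 fold change 0.64, SE 0.28, edgeR adjusted p = 0.205). Without APPko 3 their log2 fold changes were 0.30 and 0.45. Ifit2 had 42.3 CPM in APPko 3, 14.003 to 23.8 CPM in the other 7 APPko libraries, and 20.4 to 25.9 CPM in the wildtype libraries (log2 fold change -0.04, SE 0.18, edgeR adjusted p = 0.928), and apart from APPko 3 its range in APPko reached lower than in wildtype. Its log2 fold change was -0.22 without that library, with an adjusted p of 0.316, and it changed sign under several settings.

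Of the ISG15 system, which tags proteins with a ubiquitin-like modifier, and Trim25, edgeR and voom called 0 of 4, 1 had an unadjusted p under 0.05, and DESeq2 called Usp18. Usp18, which removes the tag and silences the interferon receptor, had 30.5 CPM in APPko 3, 5.77 to 11.5 CPM in the other 7 APPko libraries, and 3.12 to 9.62 CPM in the wildtype libraries (log2 fold change 0.92, SE 0.34, edgeR adjusted p = 0.131; 0.56 without APPko 3). Isg15, the modifier itself, was low, with 3.15 CPM in APPko 3, 0.190 to 1.55 CPM in the other 7 APPko libraries, and 0.538 to 2.36 CPM in the wildtype libraries. Its log2 fold change was -0.36 (SE 0.48, edgeR adjusted p = 0.724) and -0.78 without APPko 3, the most negative of the 45 members in both fits. The counts behind it were 4 to 70 per library. Herc6, the ligase of the tag in mice, and Trim25, a ligase that acts on RIG-I, had log2 fold changes of 0.18 and 0.37, and in APPko 3 they were 2.14 and 2.17 times the median of the other APPko libraries. Herc6 shares exon bases with an overlapping gene on the same strand (1269 of its 9292), as do Rtp4 (296 of 2131), Gbp7 (637 of 5614) and Igtp (162 of 2022), so these counts are uncertain. Irf9 (123 of 5386), Parp14 (110 of 9306) and Sp100 (104 of 7556) share fewer bases in this way. Irf1 (796 of 3976) and Ifi35 (290 of 1727), among others, overlap a gene on the opposite strand, which makes their counts uncertain too if strand was ignored.

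The interferon-induced GTPases include the Mx proteins, the guanylate-binding proteins and the immunity-related GTPases that attack the vacuoles of parasites. edgeR, DESeq2 and voom each called 0 of 7, and 3 had an unadjusted p under 0.05. Mx2 had 18.2 CPM in APPko 3, 2.00 to 5.08 CPM in the other 7 APPko libraries, and 1.42 to 5.33 CPM in the wildtype libraries (log2 fold change 1.25, SE 0.42, edgeR adjusted p = 0.104), and 0.77 without APPko 3. It had the highest fold change of the 45 members. Gbp2, with 8.35 RPKM the highest level of the class, had 57.2 CPM in APPko 3, 13.8 to 31.8 CPM in the other 7 APPko libraries, and 10.9 to 22.3 CPM in the wildtype libraries (log2 fold change 0.79, SE 0.28, edgeR adjusted p = 0.129). Gbp7 had 36.9 CPM in APPko 3, 11.5 to 17.6 CPM in the other 7 APPko libraries, and 12.4 to 33.2 CPM in the wildtype libraries (log2 fold change -0.23, SE 0.26, edgeR adjusted p = 0.661), and wildtype 2 and 3 were the highest wildtype libraries at 33.2 and 29.5 CPM. Without those libraries its log2 fold change was 0.21. Igtp and Irgm1 were 2.34 and 2.12 times the median of the other APPko libraries in APPko 3, with log2 fold changes of 0.66 and 0.37 (adjusted p of 0.166 and 0.369). Gbp3 had 0.04 (adjusted p = 0.942). The deposited annotation lists Mx1 and Mx2 as polymorphic pseudogenes, genes that are not functional in the reference strain. Mx1 and Mx2 lie 12.3 and 12.4 megabases from App on chromosome 16, and the strain origin of that region in the APPko cultures is not given in the sources used here.

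Of the 3 enzymes that act on nucleotides, 0 were called by edgeR, DESeq2 or voom and 0 had an unadjusted p under 0.05. Besides Rsad2, its chromosome 12 neighbour Cmpk2, a mitochondrial nucleotide kinase, had 55.5 CPM in APPko 3, 19.0 to 33.8 CPM in the other 7 APPko libraries, and 20.02 to 32.0 CPM in the wildtype libraries (log2 fold change 0.13, SE 0.21, edgeR adjusted p = 0.779). Samhd1, which breaks down the building blocks of DNA, had 14.7 CPM in APPko 3, 9.03 to 10.8 CPM in the other 7 APPko libraries, and 7.57 to 10.3 CPM in the wildtype libraries (log2 fold change 0.20, SE 0.13, edgeR adjusted p = 0.407). The ADP-ribosyltransferase Parp9 and its partner ligase Dtx3l were likewise highest in APPko 3. Dtx3l had 18.2 CPM in APPko 3, 7.03 to 10.3 CPM in the other 7 APPko libraries, and 5.54 to 9.69 CPM in the wildtype libraries (log2 fold change 0.47, SE 0.20, edgeR adjusted p = 0.189), and Parp9 had 19.0 CPM in APPko 3, 9.25 to 13.72 CPM in the other 7 APPko libraries, and 8.13 to 12.8 CPM in the wildtype libraries (log2 fold change 0.17, SE 0.17, edgeR adjusted p = 0.622). Their exons overlap by 458 bases on opposite strands, and the strand setting of the counting is not given in the sources used here, so part of each count may belong to the other. Parp14 had 19.4 CPM in APPko 3, 3.78 to 6.29 CPM in the other 7 APPko libraries, and 3.47 to 8.47 CPM in the wildtype libraries (log2 fold change 0.23, SE 0.34, edgeR adjusted p = 0.755). edgeR, DESeq2 and voom called 0 of these 3, and Dtx3l alone had an unadjusted p under 0.05.

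Among the transcription factors that carry the response, edgeR, DESeq2 and voom called 0 of 4, and 2 (Irf9 and Irf7) had an unadjusted p under 0.05. Irf9, the DNA-binding part of the complex on the ISRE, had 20.7 to 40.5 CPM in APPko libraries with a median of 27.0, against 19.2 to 25.7 CPM in wildtype libraries with a median of 20.7 (log2 fold change 0.34, SE 0.13, edgeR adjusted p = 0.151), with APPko 3 the highest at 40.5 CPM. Irf7, which drives the interferon genes themselves, had a log2 fold change of 0.75 (adjusted p = 0.220). Stat2 and Irf1 had 0.14 and 0.13. In APPko 3 these 4 factors were 1.501 to 1.84 times the median of the other APPko libraries, less than the IFIT genes at 2.19 to 5.72 times.

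Upstream of the members, edgeR and voom called 0 of 6 interferon receptor genes, 2 had an unadjusted p under 0.05, and DESeq2 called Ifnar1. Ifnar1 had 25.3 to 30.3 CPM in APPko libraries with a median of 27.0, against 19.1 to 26.1 CPM in wildtype libraries with a median of 23.0 (log2 fold change 0.27, SE 0.09, edgeR adjusted p = 0.119), and Ifnar2 had 14.003 to 19.8 CPM in APPko libraries with a median of 15.9, against 10.3 to 16.3 CPM in wildtype libraries with a median of 13.2 (log2 fold change 0.28, SE 0.12, edgeR adjusted p = 0.204). They lie 6.31 and 6.20 megabases from App. Of 11 genes of the JAK-STAT relay and its feedback, edgeR, DESeq2 and voom called 0, with 4 at an unadjusted p under 0.05, and the smallest p was that of the kinase Jak2 (log2 fold change -0.26, adjusted p = 0.138). Of 17 tested genes that sense nucleic acid or relay that signal, edgeR called 1. Myd88, the adaptor of most Toll-like receptors, had 5.00 to 8.25 CPM in APPko libraries with a median of 6.52, against 2.20 to 4.85 CPM in wildtype libraries with a median of 3.26 (log2 fold change 0.88, SE 0.18, edgeR adjusted p = 0.0263), and its groups did not overlap. It was lost in 5 of 14 fits that left out a library (APPko 1, 2 or 5, wildtype 2 or 3), with adjusted p up to 0.0617. DESeq2 called 3 of the 17 higher and 1, the DNA sensor Cgas, lower, at 5.79 ± 1.27 CPM in APPko (SD, n = 8) and 9.91 ± 4.36 CPM in wildtype (SD, n = 6) (edgeR adjusted p = 0.0681).

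A list of 38 further interferon-inducible genes served as a second look, and it was likewise chosen with results of these data known. It also holds relatives of members, so it is no independent check. 37 were tested, 34 of them with a positive log2 fold change (91.9%, against 48.3% of all genes). The median was 0.32, or 0.22 without APPko 3. 2 were called higher and 0 lower by edgeR, DESeq2 and voom alike, where edgeR called 0.944% of all genes higher and 1.41% lower. Ifi27l2a, a relative of Ifi27, had 19.5 to 57.6 CPM in APPko libraries with a median of 42.0, against 13.8 to 27.5 CPM in wildtype libraries with a median of 21.4 (log2 fold change 0.93, SE 0.20, edgeR adjusted p = 0.0276). Ly6e, a lipid-anchored surface protein, had 79.3 to 126 CPM in APPko libraries with a median of 102, against 39.9 to 104 CPM in wildtype libraries with a median of 58.6 (log2 fold change 0.72, SE 0.17, edgeR adjusted p = 0.0360), and APPko 3, at 79.3 CPM, was the lowest APPko library. The call of Ifi27l2a was lost without APPko 1, 2, 5 or 7 or wildtype 2 or 3 (adjusted p up to 0.0638), and that of Ly6e without APPko 1, 2, 4, 5, 6 or 7 or wildtype 2, 3 or 6 (up to 0.0812). APPko 3 was the highest of 14 libraries in 26 of the 37, against 8.24% of all genes. The chemokine Cxcl10 had 89.7 CPM in APPko 3, 4.03 to 30.0 CPM in the other 7 APPko libraries, and 3.35 to 16.8 CPM in the wildtype libraries, and the GTPase Iigp1 45.4 CPM in APPko 3, 6.63 to 18.3 CPM in the other 7 APPko libraries, and 4.77 to 19.9 CPM in the wildtype libraries, both chosen for naming after their values were seen.

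Microglial markers were partly higher in APPko beside the members. Their summed level was 759 to 1301 CPM in APPko with a mean of 963 ± 173 (SD, n = 8), against 576 to 1028 CPM in wildtype with a mean of 704 ± 167 (SD, n = 6). 2 of 14 were called higher: Tyrobp, an adaptor of microglial receptors (log2 fold change 1.07, SE 0.23, edgeR adjusted p = 0.0280), and C1qb, a subunit of complement C1q (log2 fold change 0.92, SE 0.23, edgeR adjusted p = 0.0471). DESeq2 called 4 (Trem2 and C1qc as well), voom 2, and 10 of 14 had a positive log2 fold change, with a median of 0.11. The calls of both were lost without several libraries (Tyrobp in 7 of 14 such fits, C1qb in 11 of 14). The part of microglial number or state in the higher levels of Lgals3bp, Zbp1, Xaf1, Ifi27l2a and Ly6e was not tested. Among the 8 endothelial markers 0 were called by edgeR, DESeq2 or voom, and 2 had an unadjusted p under 0.05.

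Among members with a promoter window, those with the ISRE letters were a median of 2.23 times the other APPko libraries in APPko 3 (n = 18), and those without 1.71 times (n = 16). At least 2 times was reached by 11 of 18 and 6 of 16. In the fold change without APPko 3 the order was the other way round, with a median log2 of 0.17 with the letters and 0.33 without them. For the GAS letters the multiple in APPko 3 was 1.47 with them (n = 9) and 2.05 without them (n = 25), and at least 2 times was reached by 3 of 9 and 14 of 25. These are descriptions of 34 genes with no test, and genes of one family share sequence.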

How the data were processed

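Polyadenylated RNA of single dentate gyri was sequenced as 151-base pairs after 12 and 10 PCR cycles, per the labels' protocols. The raw read counts per gene were deposited by the authors, who used cutadapt 3.5, STAR 2.7.8a and featureCounts 2.0.1 on mm10/GRCm38, per the submitters' processing notes. Whether counting used strand, or both reads of a pair, is not given in the sources used here.

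Genes passing edgeR's filterByExpr were tested with edgeR 4.0.16 (TMM scaling, robust quasi-likelihood test, no covariate, R 4.3.3) on 8 APPko and 6 wildtype libraries, with Benjamini-Hochberg adjustment over 22150 genes and a threshold of 0.05. Scores and CPM are from the same scaling, with a prior count of 2 in the score, and RPKM divide by exon length. DESeq2 1.42.0, limma 3.58.1 (voom with quality weights), other scalings, filters, a suffix covariate, a replicate block, f libraries alone, a GC correction and leaving out each library were alternatives. Counts halved and rounded down were added after seeing the data. The fits were tested on simulated data.

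The members, the lists and the alternatives were chosen with earlier results of these data known. Named with full values are called members, the 8 smallest p, the smallest p and highest RPKM of each role class, negative changes, and members whose highest library is at least 4 times its group's median. Of the pathway lists, called genes or the smallest p are named, and Ifnar1 and Ifnar2 always; 1 gene that the rule names is not reported here. The 43 pairs of libraries within a genotype differed beyond counting noise, with a chi-square of 7.76 to 94.1 per degree of freedom, and all 14 were counted. Header suffixes went with the levels of Xist and Y-linked genes. Promoter windows come from RefSeq, GRCm38.p6.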

Additional observations from a re-analysis of the deposited data

Results flagged for a closer look

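In 92 groups of 8 APPko or 6 wildtype libraries (members, pathway genes and summed levels), the highest or lowest library was set against the rest by Dixon's test, which flags about 1 in 20 groups by chance. Nearly all libraries flagged were APPko 3, which stood above the other 7 APPko libraries. That rate is no measure of these flags, since APPko 3 was singled out for its score over the members, and Ifit1, Mx1, Rsad2 and Parp14 were named for a library at least 4 times its group's median. The flagged levels of APPko 3 were 18.2 CPM for Mx2, 177.0 CPM for Ifit3, 30.5 CPM for Usp18, 40.5 CPM for Irf9, 57.2 CPM for Gbp2, 14.7 CPM for Samhd1 and 55.5 CPM for Cmpk2. It also had 18.2 CPM for Dtx3l, 19.0 CPM for Parp9, 42.3 CPM for Ifit2, 3.15 CPM for Isg15, 36.9 CPM for Gbp7 and 102 CPM for Ifit1. Mx1 was at 15.9 CPM there, Rsad2 at 91.3 CPM and Parp14 at 19.4 CPM. The score of APPko 3 (1.10) and the summed level of the members in it (1444 CPM) were flagged as well.

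4 flags lay elsewhere. APPko 2 had the highest Lgals3bp of its genotype at 45.01 CPM. Among wildtype libraries, wildtype 5 had the highest Zbp1 at 4.40 CPM, wildtype 6 the highest Rsad2 at 23.1 CPM, and wildtype 4 the highest summed level of microglial markers at 1028 CPM.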

How the results depend on the processing

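The score difference, the number of members with a positive change and the median change kept their direction under each setting run, and the number of members lower was 0 in each. Leaving out each library in turn gave 22 to 735 genes higher and 16 to 701 lower, 0 to 5 members higher, 0 to 0 members lower, 33 to 43 members positive, a median log2 change of 0.26 to 0.52 and a score difference of 0.28 to 0.48. DESeq2 called 737 genes higher and 1028 lower with 8 members, voom 173 lower, total-count scaling 119 lower and no expression filter 170 lower. The suffix as a covariate gave 718 higher and 728 lower, f libraries alone 1674 and 1998 with 12 members, the fit without wildtype 2 and 3 19 and 16 with 1 member, and the fit with the GC trend removed 93 and 140. Libraries of the same replicate number in the 2 genotypes had correlations of deviations from -0.34 to 0.19. Pairs of unlike number were not correlated, so whether the numbers pair the libraries was not tested. A replicate block over numbers 1 to 6 gave 9 genes higher, 11 lower and 1 member (Oasl2). Its edgeR adjusted p was 0.103 for Lgals3bp, 0.0703 for Zbp1 and 0.0585 for Xaf1.

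Among the genes named by the rule, log2 changes that turned sign were Ifit2 0.065 and Ifi204 0.047 with total counts, Rsad2 -0.12 with DESeq2, Cmpk2 -0.013, Mx1 -0.12 and Parp14 -0.16 with voom, Ifit2 0.025 and Ifi204 0.024 with the replicate block. The others were Eif2ak2 -0.097 with the suffix covariate, Isg15 0.34 in f libraries alone, Ifit2 2.2e-04, Ifi204 0.076 and Gbp7 0.21 without wildtype 2 and 3, Ifi204 0.028 with counts thinned to the smallest total, Ifit2 0.043 with the GC trend removed. Over the fits that left out 1 library the log2 changes ran, for Ifi204 -0.16 to 0.030 (turned without wildtype 3 and APPko 8), Eif2ak2 -0.051 to 0.085 (turned without wildtype 4 and APPko 3), Ifit2 -0.22 to 0.044 (turned without APPko 1, APPko 4 and APPko 7). For the remaining genes they were Cmpk2 -0.061 to 0.20 (turned without APPko 3), Ifit1 -0.0029 to 0.80 (turned without APPko 3), Mx1 -0.30 to 0.93 (turned without APPko 3), Rsad2 -0.091 to 1.51 (turned without APPko 3), Parp14 -0.22 to 0.39 (turned without APPko 3). Outside the named genes, Gbp3, Ifih1, Stat2 and Irf1 also turned in at least 1 fit, with lowest values of -0.096, -0.14, -0.0036 and -0.019. The cause was not tested. Of the other results of the named genes outside the fits that left out 1 library, 421 kept direction and side of the threshold, 20 came under it and 20 lost it. Over the fits that left out 1 library, 410 kept both, 5 came under it, 49 lost it and 12 turned. Low counts limit Isg15, Mx1 and the interferon genes.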
